A study of Homo sapiens with 4 samples.

Results

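Accessible chromatin around 10 genes of the AP-1 family and of the immediate early response was described in Ishikawa cells, which are a human cell line from an endometrial adenocarcinoma. The genes were FOS, JUN, JUNB, JUND, FOSL1, FOSL2, FOSB, ATF3, EGR1 and KLF6. Each was given a fixed window on hg19, the gene body plus about 50 kb on each side, and every region of the 4 deposited peak lists that shared at least 1 bp with a window was taken. This gave 27 of the 15269 regions in the series. They fell in the windows of 7 genes, with 9 at ATF3, 6 at FOS, 4 at EGR1, 3 at JUN, 2 each at FOSL2 and KLF6 and 1 at FOSB, and none fell in the windows of JUNB, JUND and FOSL1.

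The assay was ATAC-seq: a transposase inserts adapters where DNA is not covered by nucleosomes, and the inserts are sequenced. For at least 4 days all cells were kept in medium without phenol red, with serum stripped of steroids by charcoal, and they then received for 1 hour vehicle (DMSO), 100 nM dexamethasone, 10 nM estradiol, or 100 nM dexamethasone with 10 nM estradiol. Dexamethasone is a synthetic ligand of the glucocorticoid receptor and estradiol is the ligand of the estrogen receptor. There was 1 library per treatment, so no spread between replicates exists and no difference between treatments was tested.

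AP-1 is a dimeric transcription factor, often made of a Jun protein paired with a Fos or an ATF protein, and it binds short sites in enhancers and promoters. Some of the genes that encode it, such as FOS and JUN, are classic immediate early genes. Signals such as growth factors, serum or stress raise the transcription of these within minutes, without new protein synthesis. The glucocorticoid receptor is known to bind next to AP-1 and to interfere with it, and the estrogen receptor is also known to act through AP-1 at some genes, which makes these loci relevant to a study of both hormones.

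The promoters of 5 of the genes are shown first, because a called region lay near the start of 4 of them, as far as the windows place it (to about 10 kb), and none lay in the window of the fifth, JUND. They are RefSeq sequences on GRCh38.p14, from 250 bases before to 50 bases after an annotated start, printed 5′ to 3′ on the strand of the gene. JUN is chr1:58783998-58784297 (minus strand), EGR1 is chr5:138465229-138465528 (plus), FOSL2 is chr2:28392608-28392907 (plus), KLF6 is chr10:3785160-3785459 (minus) and JUND is chr19:18281573-18281872 (minus). Capitals mark matches to the AP-1 site TGANTCA, to the octamer TGACNTCA and to the CArG box, the core of the serum response element. Each printed promoter holds a marked match. The promoters of FOS, JUNB and FOSB, which are not printed, hold none within the same span, so the printed set overstates how common these matches are. Bases further upstream were not scanned, so a known element of these genes that lies there would be missed.
JUN: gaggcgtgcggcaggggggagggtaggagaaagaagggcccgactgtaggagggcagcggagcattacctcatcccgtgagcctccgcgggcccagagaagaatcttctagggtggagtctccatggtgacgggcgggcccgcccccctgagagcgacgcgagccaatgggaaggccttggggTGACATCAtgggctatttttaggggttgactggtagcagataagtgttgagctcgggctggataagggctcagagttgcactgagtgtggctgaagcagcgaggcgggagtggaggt
EGR1: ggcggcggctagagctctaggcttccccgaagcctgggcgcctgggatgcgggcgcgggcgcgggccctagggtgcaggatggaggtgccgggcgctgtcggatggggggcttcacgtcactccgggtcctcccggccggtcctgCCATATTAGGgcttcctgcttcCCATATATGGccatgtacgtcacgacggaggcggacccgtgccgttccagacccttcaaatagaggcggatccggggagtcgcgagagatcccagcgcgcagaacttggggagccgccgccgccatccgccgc
FOSL2: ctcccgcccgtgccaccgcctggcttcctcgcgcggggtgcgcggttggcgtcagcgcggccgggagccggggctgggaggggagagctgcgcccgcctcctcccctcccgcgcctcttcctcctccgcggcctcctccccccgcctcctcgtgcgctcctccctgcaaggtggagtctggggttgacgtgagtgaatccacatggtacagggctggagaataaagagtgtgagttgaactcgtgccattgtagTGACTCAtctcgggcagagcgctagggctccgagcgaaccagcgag
KLF6: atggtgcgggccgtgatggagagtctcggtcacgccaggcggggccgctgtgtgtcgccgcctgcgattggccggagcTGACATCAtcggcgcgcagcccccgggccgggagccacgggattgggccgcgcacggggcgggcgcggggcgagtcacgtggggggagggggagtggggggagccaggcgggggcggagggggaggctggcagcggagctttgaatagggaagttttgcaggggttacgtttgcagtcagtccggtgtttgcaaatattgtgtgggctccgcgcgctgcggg
JUND: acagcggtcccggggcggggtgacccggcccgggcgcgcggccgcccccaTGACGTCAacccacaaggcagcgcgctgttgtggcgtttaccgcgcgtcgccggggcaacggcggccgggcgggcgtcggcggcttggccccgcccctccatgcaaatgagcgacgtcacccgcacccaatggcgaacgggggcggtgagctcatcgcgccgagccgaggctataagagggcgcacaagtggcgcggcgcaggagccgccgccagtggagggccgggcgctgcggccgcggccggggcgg

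The table of promoters held 10 entries for 9 of the 10 genes, 2 of them for ATF3; FOSL1 was not matched. The octamer TGACNTCA, a form bound by Jun and ATF dimers that takes in the cAMP response element TGACGTCA, was found on either strand in 4 of these 10 promoters, those of JUN, JUND, KLF6 and 1 of the ATF3 entries. It was found in 7.72% of all 35116 promoters in the table. The octamer was added after the data were seen, so this contrast cannot be read as an enrichment. The cAMP response element, from the first list of motifs, was found in 1 of the 10, that of JUND, and in 1.85% of all promoters. In JUN the octamer match was TGACATCA, starting 67 bases before the annotated start, in KLF6 it was TGACATCA at 172 bases and in JUND it was TGACGTCA at 200 bases. EGR1 held 2 CArG boxes, CCATATTAGG starting 105 bases and CCATATATGG starting 83 bases before the start. Within the scanned bases it was the only 1 of the 10 entries with this motif, which 1.29% of all promoters held. This does not show that the other genes lack a CArG box further upstream.

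The AP-1 site TGANTCA, which shares no match with the octamer, was found in the FOSL2 promoter alone among the 10, as TGACTCA just downstream of the annotated start, and in 7.71% of all promoters. The full palindromes of the glucocorticoid response element and of the estrogen response element, each with any 3 bases in the middle, and the EGR site GCGTGGGCG were found in 0 of the 10, and in 0.0114%, 0.0570% and 0.795% of all promoters. The single hexamer AGAACA of the glucocorticoid element was found in FOSB and in 14.8% of all promoters. A match is a description of letters in a 300-base window. The peak positions are on hg19 and the promoters on GRCh38.p14, so the overlap of a called region with these bases was not determined.

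The 4 lists differed in length and depth. After duplicate removal the vehicle library had 10694743 tags and 1923 regions, the dexamethasone library 14980230 and 8428, the estradiol library 20185339 and 4772, and the combination library 8240912 and 146. The modelled fragment lengths were 104, 89, 84 and 51 bp. A region is called here when the authors' caller listed it at its p cutoff of 1e-10, and a missing call means only that the threshold of that library was not reached. Values of height and enrichment depend on the tags and fragment length of their own library, so they are given side by side and are not compared as changes.

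Within the windows 5 regions came from the vehicle library, 13 from dexamethasone, 9 from estradiol and 0 from the combination. These regions fell in the windows of 3, 7, 5 and 0 of the 10 genes. The order of the libraries depended on list length: when the dexamethasone and estradiol lists were cut to their strongest 1923 regions by p-value, the length of the vehicle list, 2 dexamethasone and 4 estradiol regions remained in the windows, at 2 and 3 genes, beside the 5 vehicle regions at 3 genes. As a background, chromosomes 1 to 22 and X were divided into 25244 tiles of 120 kb, the mean length of a window. At least 1 region was called in 6.72% of the tiles in the vehicle library, 23.6% in dexamethasone, 14.9% in estradiol and 0.349% in the combination. With the whole lists, the windows thus held regions in 30%, 70%, 50% and 0% of genes. Tiles were not matched to the windows for gene content or mappability, so the difference from the tiles cannot be read as particular to these genes.

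**Figure D1:**
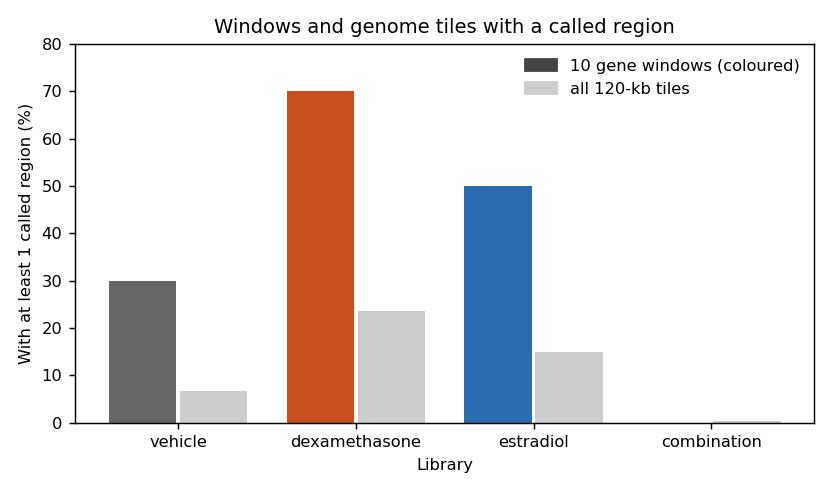
Percentage of the 10 gene windows (coloured bars, whole lists) and of all 120-kb tiles (grey bars) with at least 1 called region, by library. The windows stand at 30%, 70%, 50% and 0% and the tiles at 6.72%, 23.6%, 14.9% and 0.349% for vehicle, dexamethasone, estradiol and the combination; with lists of equal length regions lay at 3, 2 and 3 genes for vehicle, dexamethasone and estradiol.

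Regions of the lists that overlapped were merged into 14 loci, numbered along the chromosome within each window. Of these, 5 loci were called with vehicle, dexamethasone and estradiol: both FOS loci, the JUN locus and 2 of the 4 ATF3 loci. A further 2, FOSL2-1 and EGR1-1, were found in each single-hormone list but not in the vehicle list. Dexamethasone alone called 6 (FOSB-1, ATF3-3, EGR1-2, EGR1-3, KLF6-1 and KLF6-2) and estradiol alone called 1 (ATF3-4). Over all 8987 merged loci of the 3 lists, 18.3% were in all 3, 28.1% in the dexamethasone and estradiol lists but not in vehicle, 44.9% in dexamethasone only and 5.74% in estradiol only. In the windows the shares were 35.7% (exact Clopper-Pearson 95% interval 12.8 to 64.9), 14.3% (1.78 to 42.8), 42.9% (17.7 to 71.1) and 7.14% (0.181 to 33.9). Each interval covers counting error only and contains the share over all loci.

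**Figure D2:**
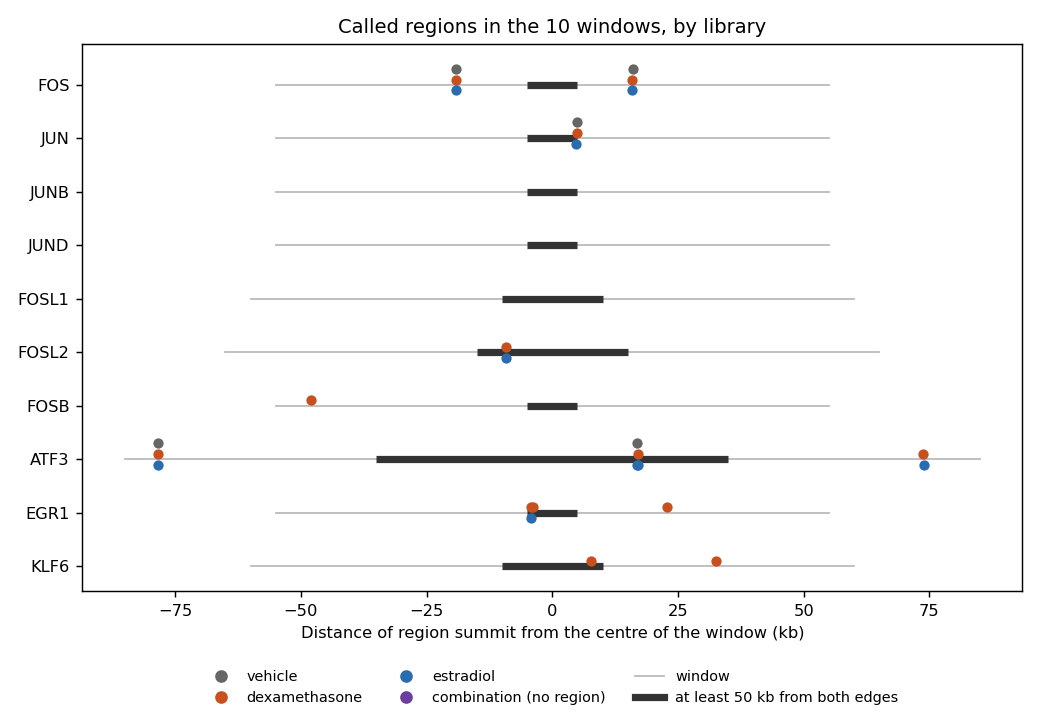
Map of the 10 windows, with the distance of each region's summit from the centre of its window in kb; thin lines are windows, thick lines the part at least 50 kb from both edges, and points the called regions by library. FOS, JUN and 2 ATF3 loci carry points from 3 libraries, KLF6 carries dexamethasone points only, and JUNB, JUND and FOSL1 carry none.

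FOS encodes c-Fos, the Fos partner of the AP-1 dimer whose transcript is among the first to appear after a stimulus. Its window on chromosome 14 (75690000 to 75800000) held 2 loci, both called in the same 3 libraries. The pileup, the number of extended tags over the summit, at FOS-1 (75725713 to 75725992) was 19 with vehicle, 30 with dexamethasone and 24 with estradiol. The fold enrichment over the local background of the same library was 10.3, 14.9 and 11.6. The 3 summits lay within 22 bp of each other. FOS-1 was the strongest of the windows' regions by p-value in the dexamethasone list, at rank 557 of 8428.

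FOS-2 (75760731 to 75761024) lay 34.7 kb further along. Its pileup was 15 with vehicle, 25 with dexamethasone and 17 with estradiol, and its fold enrichment 9.04, 11.8 and 8.93. The summits of FOS-2 spread over 114 bp, and the called part was 104 bp long with vehicle, 294 bp with dexamethasone and 141 bp with estradiol. Neither FOS locus lay near the start side of the gene as the window sets it. The point 50 kb inside the window's edge on that side marks the gene start only to about 10 kb, and the vehicle, dexamethasone and estradiol summits of FOS-1 lay 14.1 kb upstream of that point, while those of FOS-2 lay 20.8 to 21.0 kb downstream. No region was called between the 2 loci in any library.

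JUN encodes c-Jun, the central Jun partner, which is known to bind its own promoter. Its window on chromosome 1 (59190000 to 59300000) held a single locus, JUN-1 (59249644 to 59250066), with a pileup of 26 with vehicle, 37 with dexamethasone and 30 with estradiol. These were the highest pileups of any window region in each of the 3 lists. The fold enrichment was 9.98, 10.1 and 10.3, so the enrichment stood close to the median of each list (9.53, 10.04 and 9.43) although the pileup was high. The summits lay 0.182, 0.097 and 0.228 kb downstream of the start-side point, which is nearer than the precision of that point.

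ATF3 encodes a stress-induced partner of Jun proteins and is known to be transcribed from more than 1 promoter. Its window on chromosome 1 (212680000 to 212850000), the longest of the 10, held 4 loci. At ATF3-1 (212686409 to 212686729), 6.41 to 6.46 kb inside the edge of the window, the pileup was 19 with vehicle, 29 with dexamethasone and 27 with estradiol, and the fold enrichment 8.28, 9.51 and 9.86. At ATF3-2 (212781700 to 212782136), in the middle part of the window, the pileup was 19 with vehicle and 29 with dexamethasone. Its summits lay 51.8 to 52.05 kb downstream of the start-side point, which stands for the first start only. The promoter entries of ATF3 begin at 212565157 and 212614768 on GRCh38.p14. ATF3-2 may thus lie near the later start, and its distance from that start on hg19 was not determined. In the estradiol list ATF3-2 was split into 2 regions of 134 and 120 bp, 69 bp apart, with pileups of 24 and 23, where vehicle and dexamethasone each had 1 region of 390 and 437 bp. The fold enrichment at ATF3-2 was 8.14 with vehicle, 9.90 with dexamethasone, and 9.04 and 8.66 for the 2 estradiol regions.

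ATF3-3 (212838710 to 212838802), called with dexamethasone only at a pileup of 17, and ATF3-4 (212838967 to 212839054), called with estradiol only at a pileup of 16, lay 164 bp apart. They were counted as separate loci because they share no base. ATF3-4 was the only estradiol region in the windows without a dexamethasone counterpart.

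**Figure D3:**
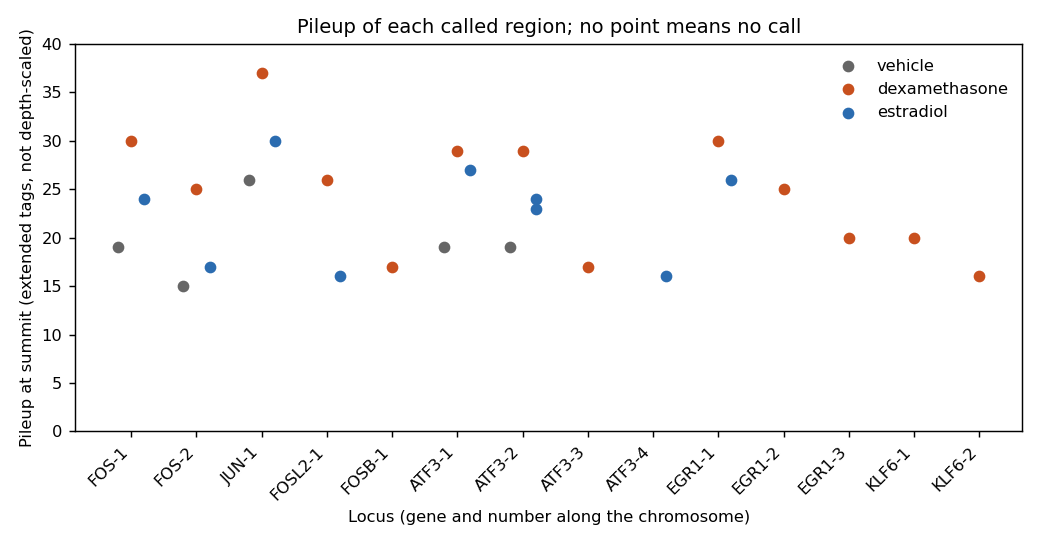
Pileup over the summit (extended tags, not scaled to depth) of every called region at the 14 loci, by library; a locus without a point of a colour was not called there, and the combination library had no call. JUN-1 holds the highest point of each library, at 26, 37 and 30 tags for vehicle, dexamethasone and estradiol.

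EGR1 encodes a zinc finger factor that serum and growth factors induce through serum response elements, such as the CArG boxes printed above. Its window on chromosome 5 (137750000 to 137860000) held 3 loci and no vehicle region. EGR1-1 (137800648 to 137800845) had a pileup of 30 with dexamethasone and 26 with estradiol, and the 2 summits lay 5 bp apart. EGR1-2 (137801049 to 137801137), 203 bp further, had a pileup of 25 and was called with dexamethasone only. The dexamethasone summits of these neighbours lay 0.778 and 1.08 kb downstream of the start-side point. Both distances are smaller than the precision of that point, so on which side of the gene start they lie was not determined. EGR1-3 (137827812 to 137827951), called with dexamethasone only, lay 26.7 kb beyond EGR1-2 and had a pileup of 20.

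Height and enrichment gave different orders at EGR1. EGR1-1 had the joint second highest pileup of the dexamethasone regions in the windows, 30 tags, but its fold enrichment was 7.70 with dexamethasone and 8.16 with estradiol. EGR1-2 had a fold enrichment of 6.26, the lowest of all 27 regions and at rank 99.7% from the top of the dexamethasone list. EGR1-3, with fewer tags, reached 10.7.

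KLF6 encodes a Krüppel-like zinc finger factor that is induced early by growth signals. The KLF6 window on chromosome 10 (3760000 to 3880000) held 2 loci, both called with dexamethasone only. KLF6-1 (3827602 to 3827736) had a pileup of 20 and a fold enrichment of 8.63, with the summit 2.31 kb downstream of the start-side point. That distance is within the precision of the point, so whether KLF6-1 lies before or after the gene start was not determined. KLF6-2 (3852373 to 3852577), 24.6 kb away on the upstream side, had a pileup of 16 and a fold enrichment of 8.71. KLF6 and FOSB were the 2 genes whose windows held dexamethasone regions and none from another library.

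FOSL2 encodes Fra-2, a Fos partner that lacks the strong activation domain of c-Fos. On chromosome 2 (28560000 to 28690000) the window held FOSL2-1 (28615585 to 28615809), with a pileup of 26 with dexamethasone and 16 with estradiol. The fold enrichment was 10.3 and 7.03, and the estradiol region stood at rank 4622 of 4772 by p-value, close to the end of that list. Its summits lay 5.69 and 5.75 kb downstream of the start-side point, which is within the precision of that point.

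FOSB encodes another Fos protein. On chromosome 19 (45920000 to 46030000) the window held FOSB-1 (45926922 to 45927014), called with dexamethasone only at a pileup of 17 and a fold enrichment of 9.66. The locus lay 6.92 kb from the edge of the window and 43.0 kb upstream of the start-side point, so it stood far from FOSB itself. The neighbours of FOSB within 50 kb in RefSeq are ERCC1, RTN2, PPM1N and VASP, and which gene lies closest to FOSB-1 on hg19 was not determined.

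JUNB and JUND encode the other Jun proteins, and FOSL1 encodes Fra-1. No region was called in their windows in any library: JUNB on chromosome 19 (12850000 to 12960000), JUND on chromosome 19 (18340000 to 18450000) and FOSL1 on chromosome 11 (65600000 to 65720000). RefSeq places 8 other named protein-coding genes within 50 kb of JUNB, 4 near JUND and 10 near FOSL1. It places 4 near FOSB, 3 near EGR1, 1 near ATF3 and 0 near FOS, JUN, FOSL2 and KLF6. Whether gene content bears on the missing calls was not tested. No call was made in the 340 kb of these 3 windows, and closed chromatin cannot be told apart there from open chromatin below the calling threshold.

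Grouped by role, the genes differed among themselves. Of the Jun genes, JUN had regions and JUNB and JUND had none; of the Fos genes, FOS and FOSL2 had regions, FOSB had 1 at the edge of its window and FOSL1 had none. ATF3, EGR1 and KLF6, which are not Jun or Fos genes, together held 9 of the 14 loci. The windows differ in length, and ATF3 has the longest. Per Mb of window there were 23.5 loci at ATF3, 27.3 at EGR1 and 16.7 at KLF6, beside 18.2 at FOS, 9.09 at JUN and at FOSB and 7.69 at FOSL2. Some of the 9 are close neighbours: ATF3-3 and ATF3-4 lay 164 bp apart, and EGR1-1 and EGR1-2 203 bp apart. A difference by role was not tested. Loci within 10 kb of the start-side point were found at JUN, FOSL2, EGR1 and KLF6, 5 loci in all, and the other 9 lay further from it. For ATF3 this point stands for the first start only, so a locus near its later start was not counted.

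Dexamethasone was then set beside vehicle, region by region. All 5 vehicle regions had a dexamethasone counterpart, so 0 of 5 were missing, which allows a share of up to 60%, beside 3.07% of the whole vehicle list. Of the 13 dexamethasone regions, 8 had no vehicle counterpart (61.5%, 31.6 to 86.1), beside 78.0% of the whole dexamethasone list. The share in the windows is within counting error of the list as a whole. The 8 regions lay at FOSL2, FOSB, ATF3, EGR1 and KLF6. Neither count held with lists of equal length, where 0 dexamethasone regions lacked a vehicle counterpart and 3 of the 5 vehicle regions lacked a dexamethasone one.

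Presence in vehicle followed the strength of the dexamethasone region. When the dexamethasone list was divided into deciles by p-value, decile 1 being the strongest, the 5 regions with a vehicle counterpart all stood in deciles 1 to 3 and the 8 without one in deciles 4 to 9. Over the whole list, 79.0% of decile 1 were also called with vehicle, 47.8% of decile 2, 30.7% of decile 3 and 21.4% of decile 4, the decile of FOSL2-1. In decile 5, which held EGR1-1 and EGR1-3, the share was 12.3%, in decile 7, which held FOSB-1 and ATF3-3, 8.42%, in decile 8, which held KLF6-1, 5.22%, and in decile 9, which held EGR1-2 and KLF6-2, 4.27%. With 1 library per treatment, an effect of dexamethasone at these loci and a difference between the libraries in depth or signal cannot be told apart.

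**Figure D4:**
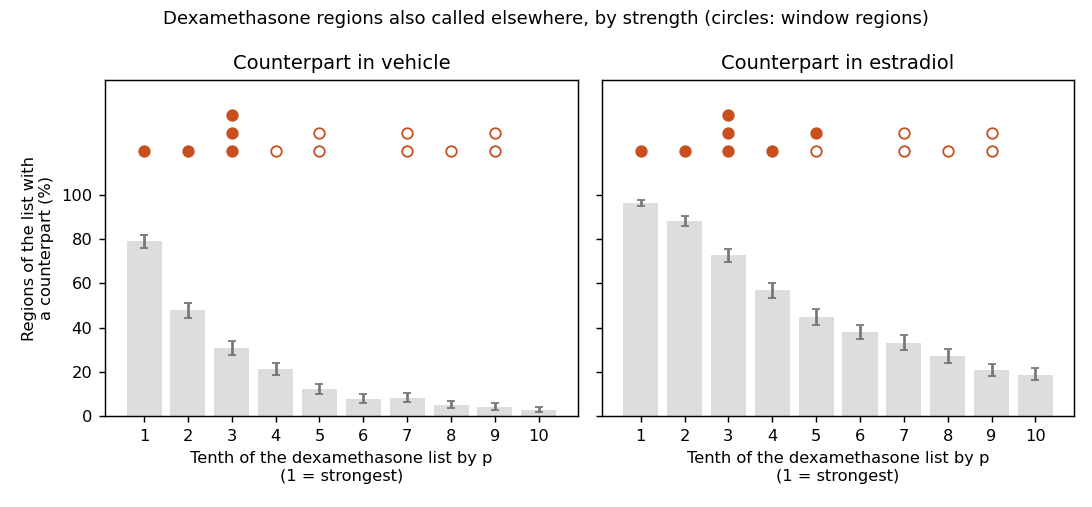
Bars give the percentage of dexamethasone regions with a counterpart in vehicle (left) and in estradiol (right) in each decile of the dexamethasone list by p-value, with exact 95% intervals; circles are the 13 window regions, filled where the counterpart was called. Filled circles stand in deciles 1 to 3 on the left and 1 to 5 on the right.

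Estradiol was set beside vehicle in the same way. All 5 vehicle regions had an estradiol counterpart, which again allows a missing share of up to 60%, beside 12.8% of the vehicle list. Of the 9 estradiol regions, 3 had no vehicle counterpart (33.3%, 7.49 to 70.1), beside 64.8% of the whole estradiol list. These 3 were FOSL2-1 in decile 10 of the estradiol list, ATF3-4 in decile 7 and EGR1-1 in decile 5. FOS-2 stood in decile 8, where 15.1% of estradiol regions were called with vehicle, and was called there. With lists of equal length, 0 estradiol regions lacked a vehicle counterpart and 1 of the 5 vehicle regions lacked an estradiol one; 1 also did when 50% of the shorter region had to overlap.

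The hormones were also set side by side. Of the 13 dexamethasone regions, 6 had no estradiol counterpart (46.2%, 19.2 to 74.9), beside 50.3% of the whole dexamethasone list, and of the 9 estradiol regions 1 had no dexamethasone counterpart (11.1%, 0.281 to 48.2), beside 11.3% of the estradiol list. The 7 dexamethasone regions also called with estradiol stood in deciles 1 to 5, and the 6 others in deciles 5 to 9. Both shares stood near those of the lists they came from. With lists of equal length, 0 dexamethasone regions lacked an estradiol counterpart, and 4 did when regions were extended by 500 bp.

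Ranks over the same loci remove the unequal list lengths, but not the differences in depth and fragment length between the libraries. The loci are also only those that reached the threshold in each of the lists. Among the 1648 loci called with vehicle, dexamethasone and estradiol, FOS-1 ranked 576 by fold enrichment with vehicle, 205 with dexamethasone and 419 with estradiol. JUN-1 ranked 678, 1377 and 830 in the same order, so it stood lower among shared loci in the dexamethasone list than in the others. By p-value JUN-1 ranked 328, 761 and 491. ATF3-1 ranked 1376, 1472 and 977 by fold enrichment, ATF3-2 ranked 1430, 1416 and 1260, and FOS-2 ranked 1072, 941 and 1306. The order of the 3 libraries differed among the 5 loci: FOS-1 and FOS-2 stood highest with dexamethasone, JUN-1 with vehicle, and both ATF3 loci with estradiol. These ranks carry no error, since each comes from 1 library.

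The combination of both hormones gave no region in any of the 10 windows. With 146 regions in that list, a count of 0 allows up to 2.05% of it to lie in such windows, while 0.154% of the dexamethasone list and 0.260% of the vehicle list did. Of the whole vehicle, dexamethasone and estradiol lists, 95.5%, 98.8% and 97.7% had no counterpart in the combination list, so most regions of each list shared the absence seen in the windows. Even FOS-1, in decile 1 of the dexamethasone list, belonged to a decile of which 7.84% was called with the combination. For these genes the combination library does not distinguish closed chromatin from a region below its calling threshold.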

How the data were processed

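Peak tables of 4 ATAC-seq libraries of Ishikawa cells were used, 1 per treatment, grouped by the treatment label. Per the file headers, peak calling by the authors used MACS 2.1.0.20140616 for every library separately, with no control, a p cutoff of 1e-10, an effective genome size of 2.7 Gb, a background window of 10000 bp and 1 tag kept per position. Bowtie 1.1.2 and the hg19 build are listed in the submitters' processing notes. Tags of 50 bp were extended to the modelled fragment length, so the deposited pileup signal counts extended tags, not cut sites, with no depth scaling. Fold enrichment, as deposited, is a ratio to the local background of the same library, and p-values and q-values are deposited as −log10. These values are the authors' own and served to describe, rank or filter regions.

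Regions overlapped when they shared at least 1 bp. Intervals are exact Clopper-Pearson at 95%, and a count of 0 was given a limit of 3 counts; both cover counting error only. No test between treatments was possible with 1 library each. The members, lists and motifs were chosen with earlier results of these data known. The rule for named regions took, in each window, the locus with the highest pileup in the deepest list calling it, loci in 3 libraries, and the highest locus called in 1 library; the other loci were few and are also named. The octamer TGACNTCA was added after the data were seen. Motif and promoter work used RefSeq on GRCh38.p14. A wider list of pathway genes, and motifs in the regions themselves, needed hg19 gene positions and sequence and were not analysed here. Overlaps were tested on simulated data. The alternatives run were a minimum −log10 q of 10, a minimum fold of 5, lists of equal length, summits in the window, windows widened by 50 kb or narrowed by 25 kb, an overlap of 50% of the shorter region, and regions extended by 500 bp. Scripts ran in Python 3.11.15 with scipy 1.17.1, pandas 2.3.3 and numpy 2.4.6.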

Additional observations from a re-analysis of the deposited data

Results flagged for a closer look

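The count of regions in the 10 windows lay above its reference for each hormone alone and below it for the combination. The whole combination list held 146 regions. The dexamethasone library held 8 more regions than vehicle, and the difference between the combination and estradiol libraries was -9. The estradiol library held 4 more than vehicle, and the difference between the combination and dexamethasone libraries was -13. The first of each pair depended on list length. With lists cut to 1923 regions, dexamethasone minus vehicle was -3 and estradiol minus vehicle was -1. The combination list, at 146 regions, was shorter than this cut. The combination minus estradiol was then -4 and the combination minus dexamethasone -2. The differences no longer lay on opposite sides of their references, but those with the combination still compared lists of unequal length. None was tested, since each treatment had 1 library, and the values of -9 and -13 rest on the combination library. It was the shallowest, at 8240912 tags, and its fragment length was modelled at 51 bp for tags of 50 bp. A count of 0 allows up to 2.05% of its list to lie in the windows, beside 0.189% of the estradiol list and 0.154% of the dexamethasone list. The values of -9 and -13 thus cannot be told apart from the length of the combination list.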

How the results depend on the processing

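Of 89 recomputed values, 15 were left out of the tally, since they concern the combination library, which had no region in the windows, or the vehicle list, which the equal-length setting leaves as it is. Of the other 74, 56 stayed within 1.5 times the reported count and 18 moved further. The 56 include the values under a minimum fold of 5 and under summits in the window, which could not move here. The lowest fold enrichment of a window region was 6.26, and the region nearest an edge lay 6.41 kb inside its window. The count of 56 is therefore not a measure of stability. Lists of equal length (the strongest 1923 regions by p-value) left 2 dexamethasone and 4 estradiol regions in the windows, at 2 and 3 genes, with 0 dexamethasone and 0 estradiol regions lacking a vehicle counterpart, 0 dexamethasone regions lacking an estradiol one, and 3 and 1 vehicle regions lacking a dexamethasone and an estradiol counterpart; the setting itself tests fewer regions. Windows widened by 50 kb held 11 vehicle, 26 dexamethasone and 20 estradiol regions, at 6 genes with vehicle and 8 with estradiol, with 15 and 9 regions lacking a vehicle counterpart and 1 vehicle region lacking an estradiol one; this setting covers more sequence. Requiring 50% of the shorter region to overlap left 1 vehicle region without an estradiol counterpart. The combination count was 0 under each setting run, and the 14 loci were the same number without that library. No paired analysis was possible because each treatment had 1 library and no result comes from a test. A missing call can be a region below the threshold of its library; how far depth set this was not tested, and the lowest pileup listed was 10 tags in the vehicle list, 11 in dexamethasone, 10 in estradiol and 8 in the combination.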
